A study of Mus musculus with 4 samples.

Results

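Cholesterol and fatty acid synthesis genes were followed here in sorted cells of the ureteric bud and collecting duct, taken from newborn mice with and without the (pro)renin receptor gene. The set was chosen by name, as 31 genes of the sterol and fatty acid pathways that the SREBP transcription factors drive, with earlier results of these data known, among them the opposite signs of sterol genes against the wild-type pools. Of the 31 genes, 30 had a probe whose accession matched the symbol, and all 30 were among the 15998 genes tested. Idi1 had no matched probe, so its level is not analysed here, but its promoter is in the motif counts below. They comprise 23 sterol genes, in the mevalonate steps, the steps from squalene to cholesterol, and regulation or transport, and 8 fatty acid genes.

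Knockout cells came from mice labelled HoxB7CreEGFP+; PRR flox/flox, and wild-type cells from mice labelled CreEGFP+ PRR+/+, so cells of both genotypes carried Cre and green fluorescent protein. PRR is the (pro)renin receptor, encoded by Atp6ap2. The HoxB7 promoter is active in the ureteric bud and the collecting ducts that grow from it, so the deletion is limited to that lineage. Green cells were sorted at postnatal day 1 and pooled, and the sources used here do not give the number of animals in a pool. Knockout RNA was labelled with Cy5 on KO_vs_WT replicates 1 and 2, beside wild-type pool 1 or pool 2 in Cy3. WT_self replicate 1 carried pool 1 in both dyes, and WT_self replicate 2 carried pool 2 in both. The groups follow the source named for each channel, because the array titles call the KO_vs_WT arrays wild type and the self arrays knockout, while for the self arrays the description field swaps pool 1 and pool 2. Were the titles right, every difference between knockout and wild type given here would have the opposite sign.

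Cells make cholesterol from acetyl-CoA through mevalonate, farnesyl pyrophosphate and squalene, and fatty acids from the same precursor through malonyl-CoA. When sterols are scarce, the SREBP proteins leave the endoplasmic reticulum, are cleaved in the Golgi and switch on the genes of both pathways in the nucleus, with SREBP-2 acting mainly on sterol genes and SREBP-1c mainly on fatty acid genes. Their promoters often combine a sterol regulatory element with sites for the general factors NF-Y and Sp1. The protein made from Atp6ap2 is also an accessory subunit of the proton pump that acidifies endosomes and lysosomes, the compartments through which cells take up cholesterol from lipoproteins.

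Promoters are shown for the 3 members with the largest difference between the wild-type pools, Ebp, Hsd17b7 and Hmgcs1, and for Fasn, the fatty acid member with the largest such difference among those with an entry in the promoter table. Scd2 and Fads1 have no entry. Each sequence is RefSeq's on GRCm38.p6, from 250 bases before to 50 after the annotated start, on the gene's own strand. Ebp lies at chrX:8193463-8193762 (minus strand), Hsd17b7 at chr1:169969156-169969455 (minus), Hmgcs1 at chr13:119690101-119690400 (plus) and Fasn at chr11:120824498-120824797 (minus). Capitals mark 3 motifs searched on both strands: CCAAT, bound by NF-Y (ATTGG on the other strand), GGGCGG, bound by Sp1 (CCGCCC on the other strand), and TCACNCCAC, the sterol regulatory element.
Ebp: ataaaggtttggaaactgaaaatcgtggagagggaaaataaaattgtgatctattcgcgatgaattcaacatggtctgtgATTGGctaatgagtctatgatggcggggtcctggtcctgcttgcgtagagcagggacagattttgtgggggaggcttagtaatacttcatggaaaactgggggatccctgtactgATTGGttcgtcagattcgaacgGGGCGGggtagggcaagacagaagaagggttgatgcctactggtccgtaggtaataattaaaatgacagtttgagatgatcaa
Hsd17b7: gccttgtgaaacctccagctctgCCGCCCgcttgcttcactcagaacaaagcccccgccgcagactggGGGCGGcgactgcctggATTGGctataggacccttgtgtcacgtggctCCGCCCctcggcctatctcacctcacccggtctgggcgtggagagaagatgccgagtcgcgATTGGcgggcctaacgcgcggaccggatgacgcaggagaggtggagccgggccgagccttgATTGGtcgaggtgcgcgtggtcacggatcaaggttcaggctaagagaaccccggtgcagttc
Hmgcs1: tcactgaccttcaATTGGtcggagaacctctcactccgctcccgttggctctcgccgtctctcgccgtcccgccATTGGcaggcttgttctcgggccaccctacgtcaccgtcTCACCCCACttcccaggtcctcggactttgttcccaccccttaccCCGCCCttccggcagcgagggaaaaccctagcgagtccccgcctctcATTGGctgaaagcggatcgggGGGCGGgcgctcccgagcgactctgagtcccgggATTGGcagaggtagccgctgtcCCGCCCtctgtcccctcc
Fasn: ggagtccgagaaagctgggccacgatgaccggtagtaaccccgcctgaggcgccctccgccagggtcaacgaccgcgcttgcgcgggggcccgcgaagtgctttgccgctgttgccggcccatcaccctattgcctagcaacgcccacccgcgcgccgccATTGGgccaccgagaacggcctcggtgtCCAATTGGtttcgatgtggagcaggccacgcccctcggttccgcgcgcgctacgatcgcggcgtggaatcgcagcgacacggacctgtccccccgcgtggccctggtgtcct
Ebp held 2 CCAAT and 1 GGGCGG, and Hsd17b7 held 3 of each. Hmgcs1 held 4 CCAAT, 3 GGGCGG and 1 TCACNCCAC, and Fasn held 3 CCAAT, of which a pair overlap in 1 palindrome. Of the 24 members with an entry, 20 held CCAAT and 19 held GGGCGG, against 37.4% and 35.7% of all 32851 promoters of this length. A member counted if any of its entries held the motif, whereas the share of all promoters was taken by entry. TCACNCCAC was in 1 of the 24, Hmgcs1, against 1.24% of all promoters. A match of letters is a description and not a binding site, and these letters search only the window shown.

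The 4 arrays shared 1 slide and 1 scan. In Cy5, 18433 to 22734 of 41174 probes were well above background, and 43 to 45 of the members' 49 probes. In Cy3 the number was 14949 to 18593 on 3 arrays and 32 on KO_vs_WT replicate 1, where no probe of a member passed, so that array has no usable wild-type channel. Levels below are log2 intensities after background correction and quantile normalization within a dye, and a level of 1 probe is not comparable with that of another. Atp6ap2 itself had Cy5 levels of 8.08 and 7.71 on the knockout arrays, against 8.51 in pool 2 and 8.38 in pool 1 (difference -0.55 ± 0.17, SE, limma adjusted p = 0.806), and where its probe lies relative to the deleted part is not known here. The profile of the Cy3 channel labelled pool 2 on KO_vs_WT replicate 2 correlated across 13239 genes at r = 0.998 with Cy3 of the self array of pool 2, and the value for the self array of pool 1 was 0.954.

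The first question was whether knockout and wild-type cells differed in these genes with the pools combined. In limma on Cy5 (2 arrays per genotype), no member passed an adjusted p of 0.05, and neither did any other gene (0% of 15998). The smallest adjusted p was 0.806, and 667 genes (4.17%) had an unadjusted p under 0.05, among them 1 member, Fasn (difference 0.56 ± 0.21, SE, limma unadjusted p = 0.0483, adjusted p = 0.806). The members ranged from -0.49 for Ebp to 0.56 for Fasn. Without WT_self replicate 1, so that pool 2 alone stood for wild type, 4219 genes (26.4%) passed, among them 4 members higher and 9 lower. The wild-type pools stood apart from each other. Over all 15998 genes the SD of pool 2 minus pool 1 was 0.47 log2 units in Cy5, against 0.21 for knockout minus pool 1 and 0.15 for the difference between the knockout arrays. For the members under quantile normalization, the median size of the pool difference was 0.41 and the median difference between the knockout arrays was 0.090. The pool difference was the larger of the 2 in 29 of 30. With processed signals of the scanner software, the knockout arrays lay further apart than the pools for Dhcr7, Ebp, Elovl6, Fasn, Fdft1, Hmgcs1, Msmo1, Pmvk, Scd2, Sqle, Srebf1 and Stard4. For the other members they lay closer together. Fasn, for example, read -1.67 and 0.52 against pool 1 on KO_vs_WT replicates 1 and 2, where pool 2 read -0.32. A comparison with either pool alone rests on 1 Cy5 array of that pool and has no test, and both comparisons use the same knockout arrays.

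**Figure D1:**
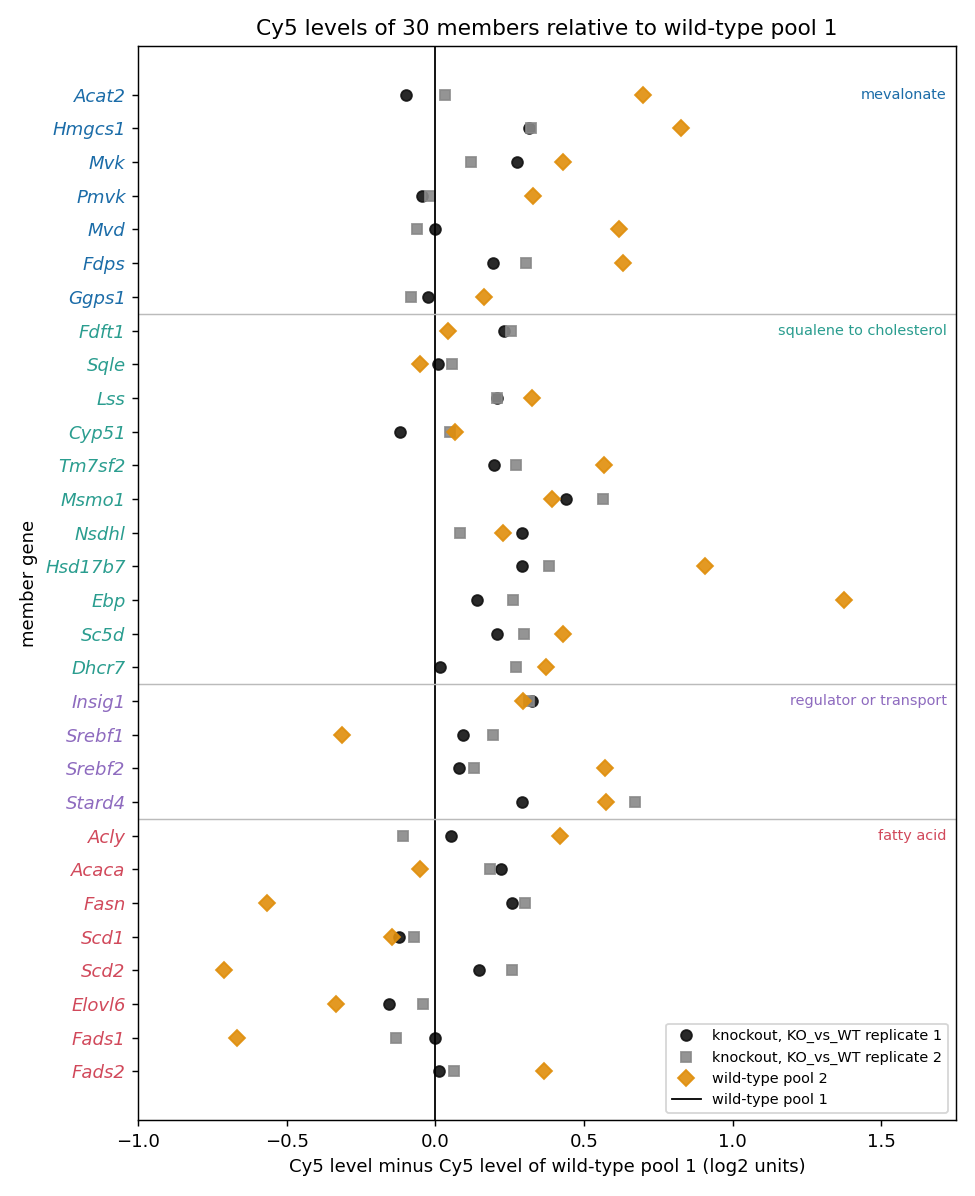
Cy5 level of each of the 30 measured members minus its Cy5 level in wild-type pool 1 (horizontal axis, log2 units), with knockout arrays as circles and squares, wild-type pool 2 as diamonds, and pool 1 as the line at 0. Names are coloured by role. All 7 mevalonate genes have pool 2 to the right of both knockout arrays, and Fasn and Scd2 have it to the left of both, under quantile normalization (processed signals on KO_vs_WT replicate 1 and median centring differ, as given in the text).

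The mevalonate genes build the isoprenoid units of all sterols. Hmgcs1, which makes HMG-CoA, had Cy5 levels of 10.55 and 10.56 on the knockout arrays, against 11.06 in pool 2 and 10.23 in pool 1. Both knockout arrays thus lay between the pools, 0.32 above pool 1 and 0.51 below pool 2 (a ratio of 0.704). With processed signals, KO_vs_WT replicate 1 read -0.91 against pool 1 for Hmgcs1, and KO_vs_WT replicate 2 read 0.62. Acat2, the thiolase of the first step, had 7.32 and 7.45 in knockout cells, against 8.12 in pool 2 and 7.42 in pool 1, so the knockout arrays straddled pool 1 and lay 0.73 below pool 2. Mvd, the decarboxylase that yields the isoprenoid unit, had 8.13 and 8.07 in knockout cells, against 8.75 in pool 2 and 8.13 in pool 1. Fdps, the synthase of farnesyl pyrophosphate, had 8.003 and 8.113 in knockout cells, against 8.44 in pool 2 and 7.81 in pool 1. Mvd therefore matched pool 1 and Fdps lay between the pools. The kinases Mvk and Pmvk and Ggps1, which leads away from sterols to geranylgeranyl groups, stood 0.22 to 0.36 below pool 2 and -0.055 to 0.20 from pool 1. In all, 7 of 7 measured mevalonate genes were lower on both knockout arrays than in pool 2 under quantile normalization, against 36.4% of all genes. Against pool 1, 3 were higher on both arrays and 2 lower, Ggps1 and Pmvk, against 37.6% and 39.6% of all genes. Under median centring between arrays, all 7 knockout means were instead above pool 2. Their median was 0.46, with all genes at 0.59, and 1 of 7 was above the median of all genes. The dimmer probe of Ggps1 read 0.077 against pool 2 and 0.20 against pool 1.

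Between squalene and cholesterol the pool difference was widest for Ebp, the isomerase that moves the double bond of the sterol ring. Its Cy5 levels were 10.48 and 10.60 on the knockout arrays, against 11.71 in pool 2 and 10.33 in pool 1. Knockout cells thus stood 1.17 below pool 2, a ratio of 0.443, and 0.20 above pool 1, a ratio of 1.15. Hsd17b7, the ketoreductase that acts in removal of the methyl groups, had 8.96 and 9.05 in knockout cells, against 9.57 in pool 2 and 8.67 in pool 1. Msmo1, the methyl sterol oxidase, had 9.99 and 10.11 in knockout cells, against 9.94 in pool 2 and 9.55 in pool 1. Msmo1 was thus above both pools on both knockout arrays, by 0.50 against pool 1, although with processed signals KO_vs_WT replicate 1 read -0.58 against pool 1 and -1.29 against pool 2. Sqle, the epoxidase that commits squalene to sterols, had 9.31 and 9.36 in knockout cells, against 9.25 in pool 2 and 9.30 in pool 1, all close together. Fdft1, squalene synthase, was 0.20 above pool 2 and 0.24 above pool 1, and Cyp51, a demethylase, 0.10 below pool 2 and 0.037 below pool 1. The other 5 of these 11 genes, the cyclase Lss, the reductases Tm7sf2 and Dhcr7, the dehydrogenase Nsdhl and the desaturase Sc5d, stood 0.14 to 0.25 above pool 1 and 0.042 to 0.33 below pool 2. Counted by both knockout arrays, 10 of 11 were above pool 1 and none below it, beside 37.6% and 39.6% of all genes, while 7 were below pool 2 and 3 above it, beside 36.4% and 49.2%. Of these 10, only Lss stayed above pool 1 on both arrays with processed signals. KO_vs_WT replicate 2 was below pool 1 for Nsdhl, at -0.17. For the others KO_vs_WT replicate 1 was below it, from -1.64 for Ebp to -0.11 for Sc5d. Dimmer probes read -0.098 against pool 1 for Hsd17b7, -0.068 for Lss, -0.11 and 0.13 for Nsdhl, and 0.12 for Dhcr7. Against pool 2, median centring between arrays put the median of these 11 genes 0.019 above that of all genes. There 6 of 11 were above the median of all genes.

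Among regulators, Srebf2 encodes the SREBP of sterol synthesis. It had Cy5 levels of 6.86 and 6.91 on the knockout arrays, against 7.35 in pool 2 and 6.78 in pool 1, so both knockout arrays lay between the pools. Srebf1, which encodes the SREBP-1 forms, had 11.27 and 11.37 in knockout cells, against 10.86 in pool 2 and 11.17 in pool 1. It was the 1 sterol member with pool 2 below pool 1 in every dye measure, and both knockout arrays were above both pools. With processed signals, KO_vs_WT replicate 1 read -1.41 against pool 1 and -1.40 against pool 2 for Srebf1, and KO_vs_WT replicate 2 read 0.33 and 0.34. Insig1, which retains the SREBP complex in the endoplasmic reticulum, had 7.27 and 7.26 in knockout cells, against 7.24 in pool 2 and 6.94 in pool 1. Stard4, a carrier of cholesterol between membranes, had 8.73 and 9.11 in knockout cells, against 9.01 in pool 2 and 8.44 in pool 1. The knockout arrays of Stard4 differed by 0.38, the widest gap between them among the members, and they straddled pool 2.

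Most fatty acid genes had another order of arrays than the sterol enzymes. Fasn, fatty acid synthase, had Cy5 levels of 11.92 and 11.97 on the knockout arrays, against 11.10 in pool 2 and 11.66 in pool 1. Both knockout arrays were above both pools, by 0.85 (1.80-fold) against pool 2 and by 0.28 (1.21-fold) against pool 1. Scd2, a stearoyl-CoA desaturase, had 12.08 and 12.19 in knockout cells, against 11.22 in pool 2 and 11.93 in pool 1, which is 1.89-fold of pool 2 and 1.15-fold of pool 1. Processed signals gave 0.84 for Fasn and 0.85 for Scd2 against pool 2 on KO_vs_WT replicate 2, but -1.35 and -1.51 on KO_vs_WT replicate 1, the array with no usable Cy3. Fads1, a desaturase of polyunsaturated fatty acids, had 8.63 and 8.50 in knockout cells, against 7.96 in pool 2 and 8.63 in pool 1. Acly, which supplies cytosolic acetyl-CoA to both pathways, had 8.34 and 8.18 in knockout cells, against 8.71 in pool 2 and 8.29 in pool 1. Acly thus followed the sterol enzymes, with pool 2 the highest, and Fads2, the partner desaturase of Fads1, did too, at 0.33 below pool 2 and 0.038 above pool 1. The elongase Elovl6 was 0.24 above pool 2 and 0.099 below pool 1. Scd1, another stearoyl-CoA desaturase, was not well above background in Cy5 of pool 2, so knockout over pool 2 is at least 1.03-fold under quantile normalization. Under median centring between arrays, Scd1 against pool 2 lay 0.62 below the median of all genes. The brightest probe of Acaca, acetyl-CoA carboxylase, was not well above background in Cy5 of pool 2 either and read 0.25 against pool 2, whereas another probe of Acaca was and read 0.024. Acaca and Scd1 were tested only because both knockout arrays detected them, so their place above pool 2 was largely fixed by that filter. Of the other 6 fatty acid genes, 4 were above pool 2 on both knockout arrays, beside 49.2% of all genes, and 2 were below it, beside 36.4%. Against pool 1, 4 of 8 were above and 3 below, close to the 37.6% and 39.6% of all genes.

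Over the list, the median of the sterol genes had opposite signs against the pools. These opposite signs were known when the set was chosen, so the values describe them and do not test them. Under quantile normalization, 10 of 22 sterol genes lay above pool 1 and below pool 2 on both knockout arrays, against 11.1% of all genes. Among the fatty acid genes 1 did, Fads2. With processed signals, KO_vs_WT replicate 2 also lay between the pools for these 10 sterol genes. KO_vs_WT replicate 1 was below pool 1 for Dhcr7, Ebp, Hmgcs1, Hsd17b7, Sc5d and Tm7sf2, from -1.64 for Ebp to -0.11 for Sc5d. For Fdps, Lss, Mvk and Srebf2 that array lay between the pools. Under median centring between arrays, Ebp alone of the 10 kept a knockout mean below pool 2, with the median of all genes at 0.59. Relative to that median, Dhcr7, Sc5d and Tm7sf2 were higher, by 0.14, 0.13 and 0.019, and the others were lower. Under quantile normalization, above both pools were 5 sterol genes, Fdft1, Insig1, Msmo1, Sqle and Srebf1, and 3 fatty acid genes, Fasn, Scd2 and, with the limit given above, Acaca, against 21.9% of all genes. Below both pools were Ggps1 and Pmvk only, against 17.7%, although the dimmer probe of Ggps1 read above both. The median of the sterol genes was 0.20 against pool 1 and -0.22 against pool 2, beside -0.0048 and 0.048 for all genes, and that of the fatty acid genes was 0.0047 and 0.25. The fatty acid medians include Acaca and Scd1, with the limit given above. The sign against pool 2 depended on the scaling: median centring between arrays put the sterol median at 0.52, with all genes at 0.59, so that it lay 0.069 below the median of all genes, and 9 of 22 sterol genes were above that median. By role, the difference from that median was -0.13 for mevalonate genes, 0.019 from squalene to cholesterol and 0.11 for regulators. Processed signals of the scanner software put the fatty acid median at -0.29 against pool 2, and without KO_vs_WT replicate 1, the array with the empty Cy3 channel, at 0.73. Against pool 1 the sterol median stayed above that of all genes under each of these scalings, by 0.16 to 0.30. The value of 0.16, from processed signals, is for the mean of knockout arrays that disagreed. KO_vs_WT replicate 1 alone was below pool 1 there for most sterol genes.

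The difference between the wild-type pools was measured in both dyes. In Cy5 under quantile normalization, 6 sterol genes were at least 1.5-fold higher in pool 2, namely Ebp, Hsd17b7, Hmgcs1, Acat2, Fdps and Mvd, against 5.97% of all genes. The fatty acid genes Scd2 and Fads1 were at least 1.5-fold lower, against 7.29%. Under median centring between arrays only Ebp of the 6 stayed at least 1.5-fold higher. There the median of all genes was -0.54, and the 6 lay above it, by 0.33 for Mvd to 1.15 for Ebp. Under quantile normalization Ebp was 2.59-fold higher in pool 2 in Cy5. Its Cy3 levels were 10.10 and 10.11 in the pool 2 channels, against 9.08 in pool 1. Hmgcs1 had Cy3 levels of 9.64 and 9.67 in pool 2, against 8.94 in pool 1, and Fasn 9.74 and 9.70 in pool 2, against 10.30 in pool 1. The pool 2 channels of Cy3, technical repeats of 1 pool, differed by a median of 0.055 and at most 0.14 for the 28 members detected in Cy3. That spread is technical, and variation between pools of 1 genotype has no estimate beyond these pools. Fads1 was the exception in size, at -0.67 in Cy5 and -0.11 in Cy3. Higher in pool 2 in Cy5 and in both Cy3 channels were 18 of 22 sterol genes (34% of 13239 genes detected in Cy3) and 2 of 6 fatty acid genes, Acly and Fads2. Lower in all 3 were Srebf1 and 4 of 6 fatty acid genes, Elovl6, Fads1, Fasn and Scd2 (43.1% of all genes). No probe of Lss, Cyp51, Insig1 or Srebf2 was well above background in Cy3 of pool 1. For Mvk and Nsdhl this held for the brightest probe only. For Lss, Cyp51 and Srebf2 the mean of the pool 2 channels over pool 1 is a bound, at least 1.07-fold for Cyp51 to at least 1.23-fold for Srebf2. For Insig1 that mean gave 1.01-fold, but the pool 2 channel on KO_vs_WT replicate 2 read -0.032 against pool 1. Of the 18 sterol genes, Mvk, Lss, Cyp51, Nsdhl and Srebf2 were counted only because both pool 2 channels of Cy3 detected them. Their sign in Cy3 was therefore largely fixed by that filter. Across the 28 members the difference in Cy5 and that in Cy3 correlated at r = 0.94, and across all 13239 genes at 0.92, over dyes that share the array and the RNA.

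**Figure D2:**
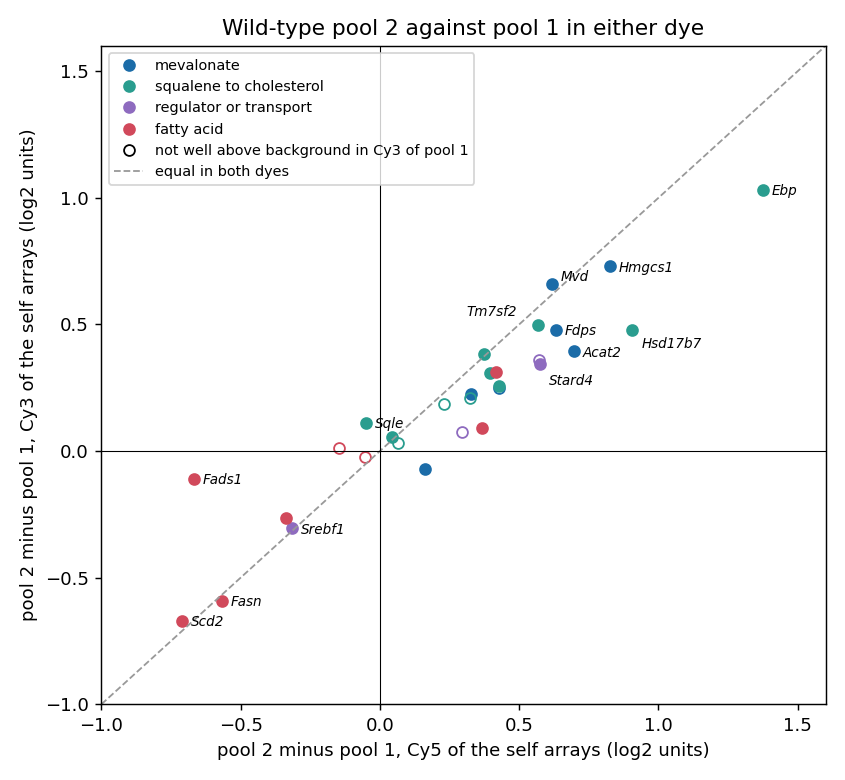
Wild-type pool 2 minus pool 1 for each of the 30 measured members, in Cy5 (horizontal) and Cy3 (vertical) of the self arrays, in log2 units, coloured by role, with open circles for probes not well above background in Cy3 of pool 1. Ebp lies at the upper right with 1.37 and 1.03, and Scd2 and Fasn at the lower left (quantile normalization; median centring moves the median of all genes to -0.54 in Cy5).

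The sterol median of pool 2 minus pool 1 was 0.41 in Cy5 and 0.28 in Cy3, beside -0.046 and -0.019 for all genes, although under median centring it was -0.26 in Cy5, where the median of all genes was -0.54. Relative to all genes it was thus 0.28 higher under median centring, 0.46 under quantile normalization and 0.73 with processed signals. By role, the median in Cy5 was 0.62 for mevalonate genes, 0.37 from squalene to cholesterol, 0.43 for regulators and -0.24 for fatty acid genes, and the last stayed 0.20 to 0.39 below all genes under these scalings. The fatty acid medians include Acaca and Scd1, which were tested only because both knockout arrays detected them. For pool 2 minus pool 1 in Cy5, Acaca and Scd1 read -1.60 and -1.20 with processed signals. Under median centring they lay 0.52 and 0.44 above the median of all genes. In Cy3 the fatty acid median was -0.067, only 0.047 below that of all genes. Different probes of a gene could disagree. For 12 members with several probes, 3 of 15 other probes had the opposite sign between pools (those of Acaca, Dhcr7 and Insig1), and the dimmer probe of Fasn read 0.23 against pool 2 where the brighter read 0.85. For knockout minus pool 1, another probe of Cyp51, Ggps1, Hsd17b7, Insig1, Lss, Nsdhl and Stard4 had the opposite sign to the brightest. Those of Acaca, Dhcr7, Fasn, Mvk and Pmvk had the same sign. For knockout minus pool 2, the opposite sign was found for Dhcr7, Ggps1, Insig1 and Stard4.

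KO_vs_WT replicate 2 held knockout RNA and pool 2 on the same spots, which gives the comparison with pool 2 a reading within 1 array. Knockout over pool 2 there, as a log2 ratio after loess, was -0.85 for Ebp, -0.68 for Mvd, -0.48 for Hsd17b7, -0.45 for Acat2 and -0.40 for Hmgcs1. For the fatty acid genes it was 1.11 for Scd2, 0.88 for Fasn, 0.14 for Fads1 and -0.60 for Acly. The same probes on the self array of pool 2, with no genotype difference, read between -0.20 for Fads1 and 0.24 for Ebp. By sign, 14 of 22 sterol genes were below pool 2 (43.6% of 15918 genes) and 8 above it (56.4%), and 6 of 8 fatty acid genes, the dim Acaca and Scd1 included, were above it. The sign matched that of the difference across arrays for 25 of 30 members, with the same knockout Cy5 channel in both. The sterol median was -0.18 and that of all genes 0.048, but with median centring in place of loess they were 0.39 and 0.40.

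**Figure D3:**
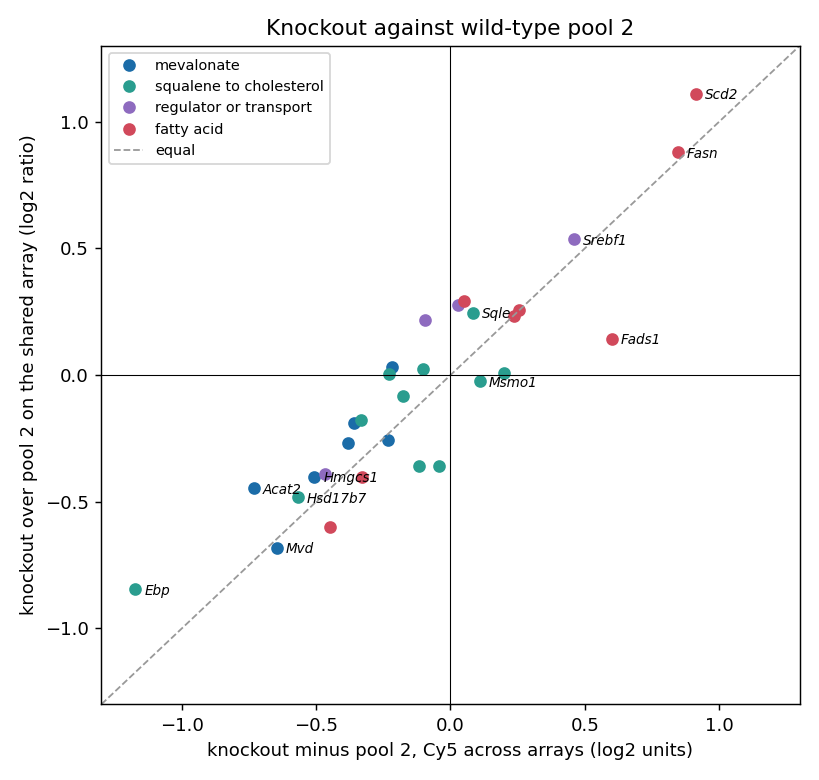
Knockout minus wild-type pool 2 in Cy5 across arrays (horizontal, log2 units) against the log2 ratio of knockout over pool 2 on the array that held both (vertical), for 30 members coloured by role. Ebp, Mvd and Acat2 lie at the lower left and Scd2 and Fasn at the upper right (quantile normalization and loess; with median centring all genes have medians of 0.59 and 0.40).

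The pools also differed in genes of other kidney cells. Markers of the proximal tubule, the segment after the glomerulus, had a summed Cy5 intensity of 2723 and 1777 on the knockout arrays, against 28816 in pool 2 and 3937 in pool 1, with 6 of the 8 measured markers (12 on the list) well above background on the knockout arrays and in pool 1 and 8 in pool 2. Markers of the distal tubule and Henle's loop summed to 1626 and 1496 in knockout cells, against 7346 in pool 2 and 1918 in pool 1. Those of the collecting duct and ureteric bud summed to 25815 and 28414 in knockout cells, against 16904 in pool 2 and 22372 in pool 1 and all 11 measured markers were well above background on every array, so markers of the labelled tissue were present. Stromal markers summed to 2922 and 2498 in knockout cells, against 1832 in pool 2 and 3594 in pool 1. The tubule markers were therefore highest in pool 2, as most sterol enzymes were, and the collecting duct and stromal markers lowest there, as Fasn and Scd2 were. Spike-in controls, added at labelling, also set pool 2 apart, with a median signal of 5.60 in its Cy5 channel against 1786 to 4606 in the other Cy5 channels. The part of these differences in the results of the members was not tested. In pooled cells, more cells of a type and more RNA per cell cannot be told apart.

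**Figure D4:**
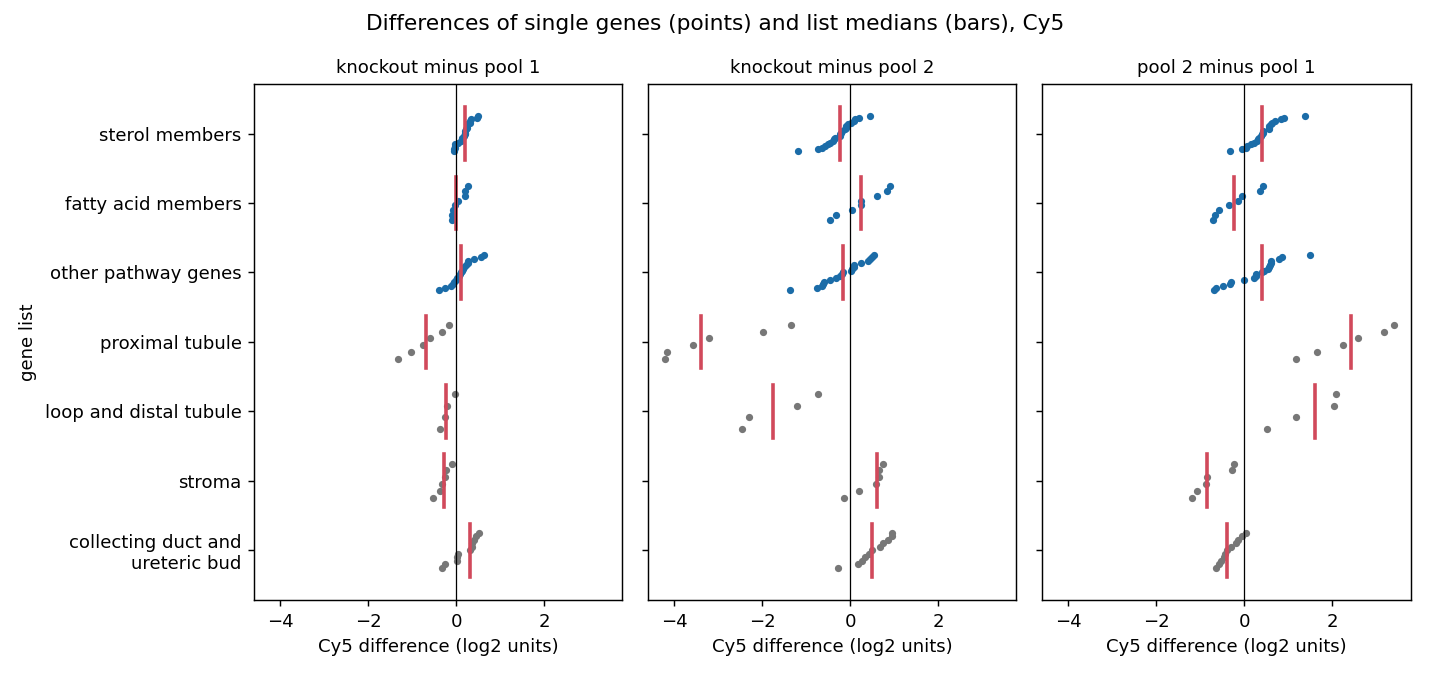
Cy5 differences of single genes (points) and list medians (red bars) in log2 units for knockout minus pool 1, knockout minus pool 2 and pool 2 minus pool 1, for the members, the other pathway genes and marker lists. The sterol median is 0.20, -0.22 and 0.41, and the proximal tubule median is -0.68, -3.39 and 2.42, in the order of the panels (quantile normalization; median centring turns the sign of the sterol median in the panels with pool 2).

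Other genes of lipid synthesis and handling, 19 of 22 listed, gave a median of 0.12 against pool 1 and -0.16 against pool 2, and 0 passed limma. Both knockout arrays were above pool 1 for 13 and below it for 5, beside 37.6% and 39.6% of all genes. They were above pool 2 for 8 and below it for 10, beside 49.2% and 36.4%. Acsl1, which activates long-chain fatty acids, had Cy5 levels of 8.53 and 8.58 on the knockout arrays, against 9.93 in pool 2 and 8.43 in pool 1. Por, the reductase that supplies electrons to Cyp51 and Sqle, had 9.73 and 9.74 in knockout cells, against 10.49 in pool 2 and 9.71 in pool 1. Both thus matched pool 1 closely and lay below pool 2, by 1.38 and 0.76. Mylip, a ubiquitin ligase for lipoprotein receptors, and Nr1h2, a nuclear receptor for oxysterols, were 0.54 and 0.50 above pool 2. Soat1, which esterifies cholesterol, was 0.64 above pool 1. Acacb, a carboxylase that makes malonyl-CoA, was not well above background in pool 1, so knockout over pool 1 is at least 1.31-fold. It was tested only because both knockout arrays detected it, so its place above pool 1 was largely fixed by that filter. Acss2, counted below both pools, was tested only because both wild-type arrays detected it, and has the same limit. The widest below pool 1 were -0.39 for Abcg1, a cholesterol exporter, and -0.24 for Mbtps1, a protease that cleaves SREBP.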

How the data were processed

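Total RNA of sorted cells (0.5 µg per labelling reaction) was hybridised to Agilent two-colour whole mouse genome arrays, per the labels' protocols. Each deposited array file holds, per spot and dye, an intensity as the median pixel signal with its local background, from Agilent Feature Extraction 10.7.3.1, per the file headers. Processed signals, corrected for background and dye bias, are also a deposited intensity. The deposited log10 ratio is Cy5 over Cy3 and equals the series table in 45018 of 45018 spots on each array (tolerance 1e-06), its median being 0.173 on KO_vs_WT replicate 1 and 0 elsewhere. Spot flags (well above background, non-uniform, saturated with 0 probes) were also used as deposited.

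From 43379 non-control spots (41174 probes, 22951 with a symbol through RefSeq accessions on GRCm38.p6), intensities were corrected with normexp (offset 50) and quantile normalized over 4 Cy5 or 3 Cy3 channels. The offset understates differences of dim probes. Flagged spots and a dark patch of WT_self replicate 1 (520 spots, no member) were left out; the patch rule was set after seeing the data. A probe was kept if both arrays of 1 genotype had it well above background in Cy5, and the brightest probe stood for a gene. Genotypes were compared with limma 3.58.1 in R 4.3.3 (two-sided, Benjamini-Hochberg over 15998 genes, threshold 0.05), tested on simulated data. Median signals were used. A bound takes the higher of a dim probe's own level and the lowest level well above background. The labels do not say that arrays came from separate animals, so p-values measure only the spread between these arrays. Alternatives covered scaling, offset, probe choice, the dim-probe filter, the patch, each array left out and a replicate block. The members and all lists were chosen with earlier results of these data known. All members could be named, and other pathway genes were named by the 2 widest differences in each direction against each pool.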

Additional observations from a re-analysis of the deposited data

How the results depend on the processing

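The count of 0 genes called in limma held under each setting that kept all 4 arrays and without either KO_vs_WT array or WT_self replicate 2, whereas without WT_self replicate 1 the count was 4219 of 15998 (adjusted p under 0.05), so that leaving out 1 array gave 0 to 4219. Among them were 4 members higher and 9 lower in knockout. There pool 2 alone stood for wild type and was assumed to vary like the knockout arrays. With a replicate block in the paired fit the count was also 0. The labels do not number the knockout pools, so the replicate numbers do not pair the samples.

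List medians on the log2 scale moved with the scaling. Median centring between arrays put the sterol median at 0.30 against pool 1 and 0.52 against pool 2, and pool 2 minus pool 1 at -0.26 in Cy5 and 0.043 in Cy3. For the fatty acid members, the dim Acaca and Scd1 included here and below, these medians were 0.063, 0.82, -0.77 and -0.35. Processed signals gave 0.049, -0.58, 0.73 and 0.91 for sterol members and -0.31, -0.29, -0.39 and -0.17 for fatty acid members, with 0.61 on the shared array. An alternative chosen after seeing the data used processed signals without KO_vs_WT replicate 1, whose Cy3 channel was nearly empty. It gave 0.36 and -0.39 for sterol members against pools 1 and 2, and -0.051 and 0.73 for fatty acid members. A normexp offset of 16 gave 0.25, 0.46, 0.39 and -0.22 for sterol members (knockout minus pool 1, pool 2 minus pool 1 in Cy5 and Cy3, shared array) and 0.33, -0.30 and 0.36 for fatty acid members (knockout minus pool 2, pool 2 minus pool 1 in Cy5, shared array). The mean of all detected probes gave 0.13, 0.37 and 0.23 for sterol members (knockout minus pool 1, pool 2 minus pool 1 in Cy5 and Cy3) and 0.19 and 0.19 for fatty acid members (knockout minus pool 2, shared array). On the shared array, median centring in place of loess gave 0.39 and 0.50, and subtracting the self array's ratio gave -0.30 and 0.28 for sterol and fatty acid members. Leaving out 1 knockout array gave 0.20 to 0.23 for the sterol median against pool 1 and 0.0099 to 0.033 for the fatty acid median. The cause of these shifts was not tested.

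For single members, the difference of the genotype means changed sign in 53 of 300 combinations of member and setting. With processed signals it was 0.11 for Mvk, -0.26 for Fdft1, -0.37 for Sqle, 0.015 for Cyp51, -0.29 for Msmo1, -0.28 for Nsdhl, -0.18 for Sc5d, -0.53 for Srebf1, -0.10 for Stard4, -0.41 for Fasn, 0.53 for Scd1, -0.55 for Scd2 and -0.36 for Elovl6. Under median centring between arrays it was 0.013 for Acat2, 0.46 for Hmgcs1, 0.28 for Mvk, 0.35 for Pmvk, 0.14 for Mvd, 0.40 for Fdps, 0.25 for Ggps1, 0.075 for Cyp51, 0.48 for Tm7sf2, 0.41 for Hsd17b7, 0.046 for Ebp, 0.50 for Dhcr7, 0.076 for Srebf2, 0.25 for Acly and 0.25 for Fads2. With the mean of all detected probes it was 0.0018 for Ggps1, -0.050 for Lss, -0.043 for Nsdhl and 0.087 for Dhcr7. Leaving out 1 array gave -0.51 to 0.32 for Hmgcs1, -0.23 to 0.20 for Mvk, -0.38 to 0.25 for Fdps, -0.12 to 0.21 for Lss, -0.15 to 0.014 for Cyp51, -0.33 to 0.23 for Tm7sf2, -0.042 to 0.19 for Nsdhl, -0.57 to 0.34 for Hsd17b7, -1.17 to 0.20 for Ebp, -0.18 to 0.25 for Sc5d, -0.23 to 0.14 for Dhcr7, -0.47 to 0.10 for Srebf2, -0.093 to 0.48 for Stard4, -0.10 to 0.050 for Scd1, -0.10 to 0.24 for Elovl6, -0.067 to 0.60 for Fads1 and -0.33 to 0.038 for Fads2. No member changed sign with an offset of 16, without the dim-probe filter or with the dark patch kept.

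Signal over background limits the dim probes most: Scd1 and the brightest probe of Acaca were not well above background in Cy5 of pool 2 or in any Cy3 channel, and the offset shrinks their differences. With 1 array for each wild-type pool, neither pool comparison has a replicate error of its own.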
